A study of Mus musculus with 6 samples.

Results

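The histone genes described here are 10 genes, of 24786 gene rows in the deposited counts, that encode variant histones or histones of the canonical type with polyadenylated mRNA: Hist1h1c, Hist1h2bc, H1f0, H2afx, H2afz, H2afv, H2afy, H2afj, H3f3a and H3f3b. They were selected by gene symbol, on lists made with the tyramine against control result of these data already known, so the changes of these 10 genes are given as a description and support nothing. RNA was sequenced from wild-type mouse intestinal organoids, cultured epithelial structures grown from gut stem cells, which were dissociated to single cells and then held for 16 h with 100 µM tyramine (3 libraries) or as controls (3 libraries). Gut bacteria make tyramine, an amine, by decarboxylating tyrosine. Controls carry DMSO in their titles but control medium in the study's description, and the solvent of the tyramine cultures is not stated. The sources used here also do not give the age or number of mice behind the cultures. All 10 genes had enough counts to be tested.

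Histones package DNA into nucleosomes, with the core proteins H2A, H2B, H3 and H4 inside and linker histone H1 on the DNA between them. Most core histones are made in bulk during S phase from replication-dependent genes, whose mRNAs end in a short RNA stem-loop bound by the protein SLBP instead of a poly(A) tail. Variant histones are mostly made throughout the cell cycle from spliced, polyadenylated mRNAs and are placed into chromatin by their own chaperones, so in dividing and maturing gut epithelium their mRNAs need not follow DNA synthesis. The library kit was an mRNA kit, and its way of enriching mRNA is not stated in the labels.

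The stem-loop was looked for in the annotated transcripts, because mRNAs of replication-dependent histone genes end in it. The letters GGCNCTTNTNAGNGCC were searched in the longest protein-coding transcript of each gene in GENCODE M21, on the transcript strand. The last match in a transcript was kept, and every match kept lay after the stop codon. Of the 10 genes, 2 held it, Hist1h1c and H2afx, whereas 39 of 60 annotated replication-dependent histone genes did. Some of the 21 replication-dependent genes without a match have transcripts only as long as a coding sequence, such as Hist1h2bl and Hist1h2bn (381 bases). For those, a missing match is no sign that the gene lacks a stem-loop. Other transcripts of each gene were not searched, so any missing match speaks only for the transcript used. Each line gives 26 bases around a match, with the 16 searched letters in capitals. Shown are Hist1h1c, H2afx and the most abundant stem-loop genes that were called higher.
Hist1h1c: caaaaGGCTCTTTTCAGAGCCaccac
H2afx: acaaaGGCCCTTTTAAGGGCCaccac
Hist2h2aa1: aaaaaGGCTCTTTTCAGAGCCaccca
Hist1h2bg: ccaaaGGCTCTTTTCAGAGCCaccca
In Hist1h1c the stem-loop began 24 bases after the stop codon and 840 bases followed it, with 1 AATAAA polyadenylation signal among them. In H2afx it began 46 bases after the stop codon, and 822 bases followed with no AATAAA. Such a length is not particular to them, since 18 of the 39 replication-dependent genes with a stem-loop also had 100 or more annotated bases past it. The transcript of Hist2h2aa1 ended 35 bases past its stem-loop and that of Hist1h2bg 155 bases past it. The longest coding transcript of Hist1h2bc, in 2 exons, held no match.

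As a group, the histone genes moved in both directions. Hist1h1c, Hist1h2bc and H3f3b were higher in tyramine organoids at an adjusted p under 0.05, H2afv and H2afy were lower, and H1f0, H2afx, H2afz, H2afj and H3f3a did not pass. That is 3 higher and 2 lower of 10, or 5 of 10 in either direction, beside 12.5% higher, 13.3% lower and 25.8% in either direction among all 12139 genes tested with edgeR's quasi-likelihood test. The 3 tyramine libraries lay wholly above or below the 3 controls for 6 of the 10 genes, beside 44.5% of all genes tested. Because the genes were chosen on this same contrast, nothing is read from these shares. The median log2 fold change was 0.14 over the 10 genes and 0.004 over all genes tested. In these bulk libraries, fewer cells of a type and less RNA per cell cannot be told apart, and the labels do not say whether replicates came from separate cultures, so p-values reflect only how far these libraries scatter, possibly for technical reasons.

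**Figure D1:**
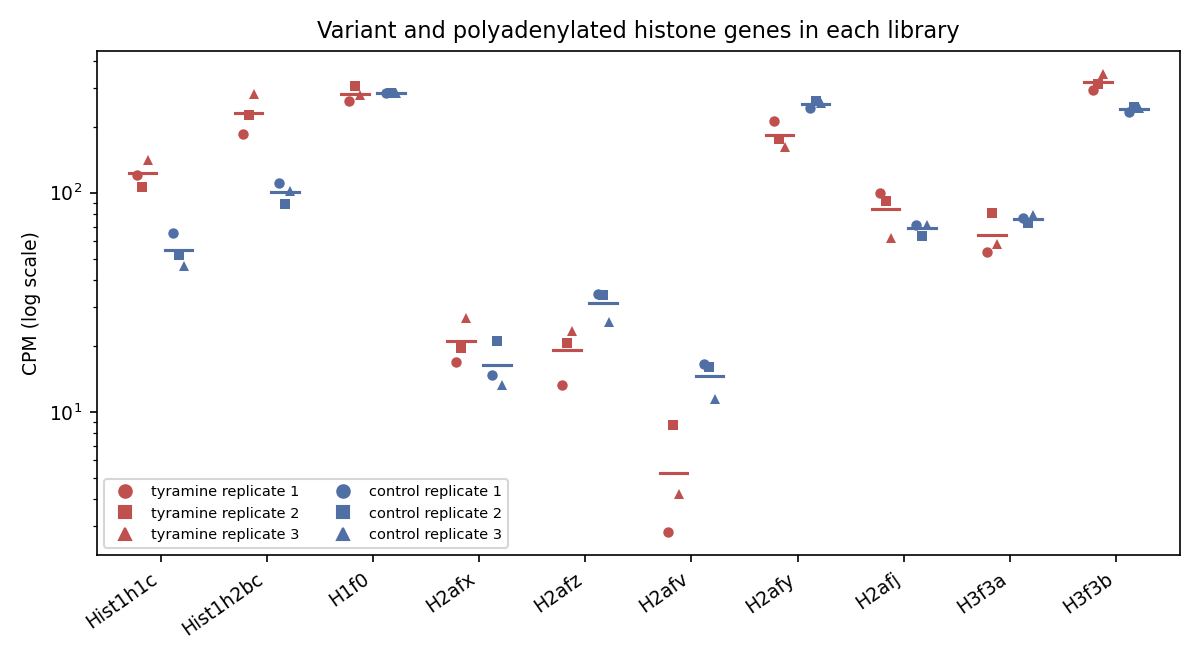
CPM (counts scaled to library size, log axis) of the 10 histone genes in each tyramine library (red) and each control library (blue), with horizontal lines at the group means. Hist1h1c, Hist1h2bc and H3f3b lie higher in all 3 tyramine libraries and H2afz, H2afv and H2afy lower, while the groups overlap for the other 4.

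Hist1h1c encodes the linker histone H1.2, a member of the somatic H1 set from the large histone cluster on chromosome 13 (GRCm38 chr13:23738808-23740367, plus strand, 1 exon). It stood at 120, 106 and 141 CPM in tyramine organoids, against 65.2, 52.1 and 46.5 CPM in controls. The lowest tyramine library was well above the highest control. The log2 fold change was 1.17 ± 0.17 (SE), a 2.25-fold difference, and it stayed past the threshold in all 16 alternative settings, with values of 1.06 to 1.31. About 5.07% of its transcript's 100-base windows also occur in Hist1h1d or Hist1h1e, so reads of these paralogs could in small part be split between them.

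H1f0 encodes H1.0, the replication-independent linker histone that accumulates as cells leave the cycle and differentiate. It stood at 263, 307 and 279 CPM in tyramine organoids, against 286, 286 and 286 CPM in controls. The tyramine libraries lay on both sides of the controls, which were nearly equal to each other. The log2 fold change was -0.015 ± 0.096 (SE), and without tyramine replicate 1 it was 0.038. Of the 100-base windows of its transcript, none occurs in another annotated transcript.

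Levels of these linker histones are also given as a share, without the other H1 genes. Scaled by transcript length, Hist1h1c made up 37.6%, 31.3% and 40.0% of the Hist1h1c and H1f0 total in tyramine organoids, against 23.1%, 19.4% and 17.6% in controls. The groups did not overlap on this share, and 44.5% of all single genes tested did not overlap either. Family shares, here and below, recombine the values of genes chosen on this contrast, so nothing is read from them.

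Hist1h2bc encodes an H2B of the canonical type from the same chromosome 13 cluster (GRCm38 chr13:23684199-23692908, plus strand), with an annotated spliced transcript. It stood at 185, 227 and 282 CPM in tyramine organoids, against 111, 88.7 and 102 CPM in controls. All tyramine libraries were higher, with tyramine replicate 3 the highest. The log2 fold change was 1.20 ± 0.16 (SE), and it stayed past the threshold in all 16 alternative settings, at 1.04 to 1.34. Its coding sequence differs from that of Hist1h2bg at 5 of 381 bases, and 25.4% of its 100-base windows also occur in 1 or more of 14 other genes, so the level of Hist1h2bc is uncertain by the counts these paralogs share. The highest count of any of those 14 genes in a library was 1349, against 8107 for Hist1h2bc.

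H2afz and H2afv encode H2A.Z.1 and H2A.Z.2, closely related forms of the H2A variant found at promoters and enhancers. H2afz stood at 13.3, 20.6 and 23.5 CPM in tyramine organoids, against 34.4, 34.2 and 25.8 CPM in controls. All tyramine libraries were below all controls, by a small margin between tyramine replicate 3 and control replicate 3. The log2 fold change of -0.72 ± 0.27 (SE) did not pass the threshold, though it did without tyramine replicate 3 (-0.89) and with a filter at a mean of 20 CPM (-0.77). H2afz shares 29.7% of its 100-base windows with Gm8203 and Gm13007, neither of which is a row of the deposited counts.

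H2afv was the least abundant of the 10 genes by length-scaled level and had the largest fall. It stood at 2.82, 8.68 and 4.21 CPM in tyramine organoids, against 16.5, 16.0 and 11.4 CPM in controls. All tyramine libraries were lower, and they differed among themselves by 3.07-fold between the lowest and the highest. Its log2 fold change was -1.48 ± 0.47 (SE). It lost the threshold in 7 of the 15 alternatives that tested it, which were robust estimation off, a replicate block and leaving out control replicate 1, 2 or 3 or tyramine replicate 1 or 3, with values of -2.05 to -1.18 over all 15. The H2afz and H2afv coding sequences match at 79.1% of 387 bases, and none of the 100-base windows of H2afv occurs elsewhere in the annotation.

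Within the pair, H2afz took the larger share by length in every library. The share was 87.8%, 78.4% and 89.5% in tyramine organoids, against 76.1%, 76.6% and 77.6% in controls. The groups did not overlap, although tyramine replicate 2 was within 1 percentage point of control replicate 3. Together H2afz and H2afv made up 7.68%, 14.1% and 15.6% of the 5 H2A variant genes in tyramine organoids, against 20.02%, 19.1% and 15.2% in controls, and here tyramine replicate 3 overlapped the controls.

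H2afx encodes H2A.X, which is phosphorylated around DNA double-strand breaks and whose mRNA can end at a stem-loop or at a poly(A) tail. It stood at 16.8, 19.5 and 26.7 CPM in tyramine organoids, against 14.7, 21.0 and 13.2 CPM in controls. The groups overlapped, and the log2 fold change of 0.36 ± 0.30 (SE) passed the threshold in no setting. H2afj encodes H2A.J, a variant known in human fibroblasts to accumulate in senescence. It stood at 100.0, 91.9 and 62.2 CPM in tyramine organoids, against 71.6, 63.2 and 71.5 CPM in controls. Tyramine replicate 3 was below every control and the other tyramine libraries above every control. Its log2 fold change was 0.30 ± 0.19 (SE), which did not pass, and 0.48 without tyramine replicate 3, which did.

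H2afy encodes macroH2A1, a large H2A variant that carries a macro domain beside the histone fold and is known for repressed chromatin. It stood at 212, 175 and 162 CPM in tyramine organoids, against 244, 261 and 257 CPM in controls. All tyramine libraries were lower, and the fitted log2 change was -0.47 ± 0.12 (SE). Leaving out control replicate 2 (-0.46), control replicate 3 (-0.47) or tyramine replicate 2 (-0.44) took it below the threshold.

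H3f3a and H3f3b encode the same H3.3 protein from different mRNAs, whose coding sequences match at 76.9% of 411 bases. H3f3b stood at 296, 314 and 349 CPM in tyramine organoids, against 233, 247 and 243 CPM in controls. All tyramine libraries were higher, and the log2 fold change was 0.41 ± 0.099 (SE). It lost the threshold without control replicate 1 (0.38) or control replicate 2 (0.42).

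H3f3a stood at 53.5, 80.7 and 58.1 CPM in tyramine organoids, against 76.5, 72.8 and 79.3 CPM in controls. Tyramine replicate 2 was above every control and the other tyramine libraries below, and the log2 fold change of -0.25 ± 0.18 (SE) passed in no setting. By length, H3f3b made up 86.2%, 81.5% and 87.2% of the H3.3 total in tyramine organoids, against 77.5%, 79.3% and 77.6% in controls. The groups did not overlap. Windows of 100 bases found in other genes made up 7.73% of the H3f3a transcript and 2.44% of the H3f3b transcript, so most of their sequence is distinct.

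**Figure D2:**
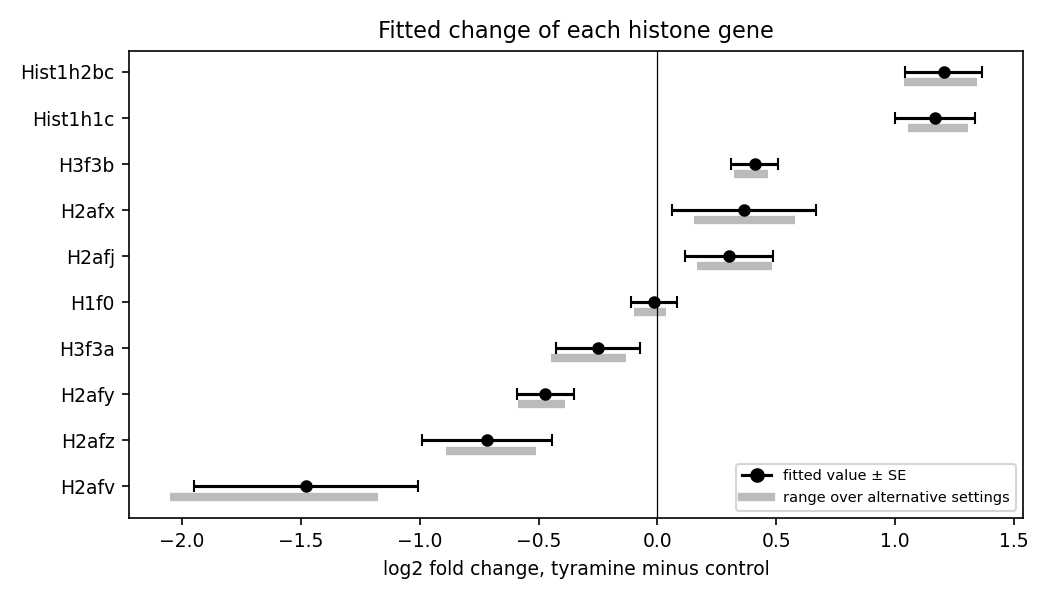
Fitted log2 fold change, tyramine minus control, of each of the 10 histone genes (points, with bars of 1 SE) and its range over the alternative settings (grey). Hist1h2bc (1.20) and Hist1h1c (1.17) lie farthest to the right and H2afv (-1.48) farthest to the left, and only H1f0 has a range that crosses 0.

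**Figure D3:**
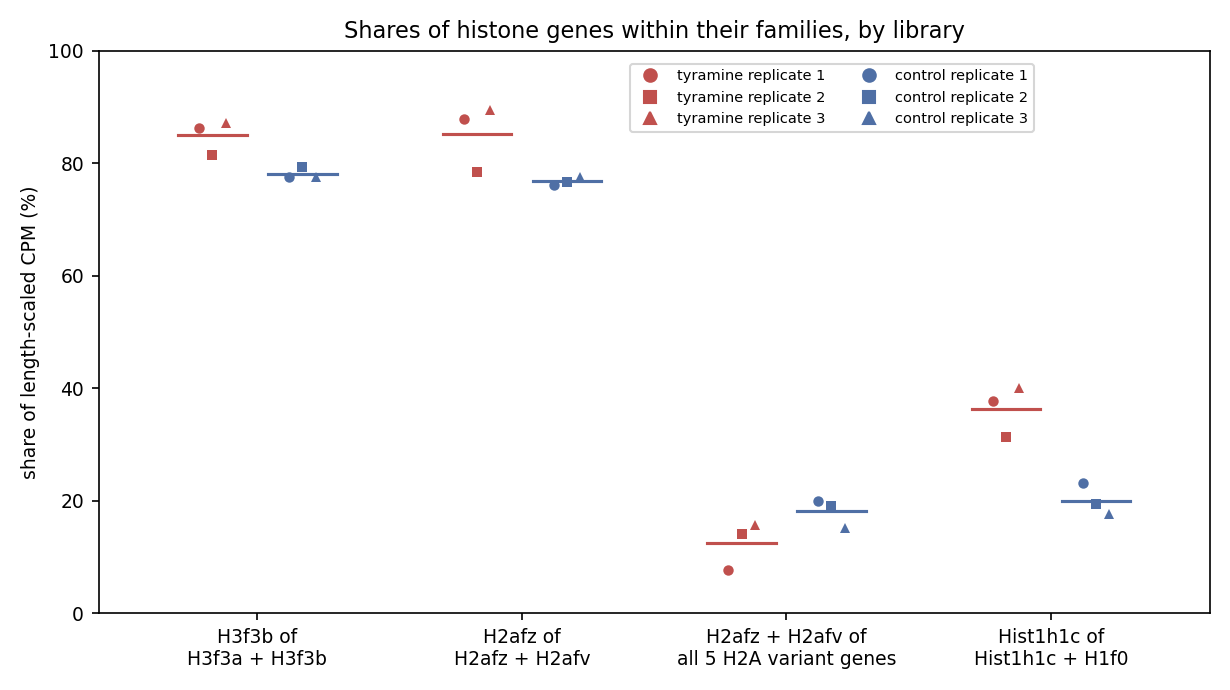
Shares of length-scaled CPM (%) within histone families in each tyramine library (red) and each control library (blue), with lines at the group means. The share of Hist1h1c runs from 31.3% to 40.0% in tyramine libraries and from 17.6% to 23.1% in controls, and the shares of H3f3b and H2afz are also higher without overlap.

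Levels of different genes can be compared only per length, here as CPM per kilobase of the longest coding transcript. In tyramine organoids the order was Hist1h2bc at 200.3 ± 42.0, H1f0 at 138 ± 10.9, H3f3b at 127 ± 10.8, H2afy at 89.6 ± 12.7, Hist1h1c at 78.6 ± 11.2, H2afj at 46.3 ± 10.9, H3f3a at 22.6 ± 5.14, H2afz at 17.9 ± 4.91, H2afx at 15.2 ± 3.69 and H2afv at 3.21 ± 1.87 (SD, n = 3). In controls it was H1f0 at 139 ± 0.20, H2afy at 124 ± 4.31, H3f3b at 95.8 ± 2.95, Hist1h2bc at 86.9 ± 9.63, H2afj at 37.6 ± 2.62, Hist1h1c at 34.98 ± 6.16, H2afz at 29.4 ± 4.61, H3f3a at 26.8 ± 1.15, H2afx at 11.8 ± 2.96 and H2afv at 8.95 ± 1.71 (SD, n = 3). Hist1h2bc thus ranked first in tyramine organoids and at rank 4 in controls by this measure, and H2afv was last in both. Among controls, the libraries of H3f3b and Hist1h2bc overlapped, as did those of neighbours from H2afj down to H3f3a and those of H2afx and H2afv. Among tyramine libraries, those of H1f0 and H3f3b overlapped, as did H2afy with Hist1h1c and each neighbouring pair from H3f3a to H2afx. Where the transcript used differs from the longest coding one, these levels shift.

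The spread between libraries also differed. The ratio of the highest to the lowest library ran from 1.17 to 3.07 over the 10 genes in tyramine organoids and from 1.003 to 1.58 in controls, and it was larger in tyramine organoids for 9 of them, by very little for H2afx (1.585 in tyramine organoids and 1.584 in controls), the exception being Hist1h1c. It was also larger in tyramine organoids for 72.7% of the 11020 tested genes with a count in every library. Summed CPM of the 10 genes was 1263, 1352 and 1389 in tyramine organoids, against 1152, 1142 and 1136 in controls. The groups did not overlap, and H1f0, H2afy, H3f3b and Hist1h2bc supplied most of this sum. It is not scaled by length and combines genes chosen on this contrast, so nothing is read from it.

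Promoters were read for the genes with an entry in the RefSeq table for GRCm38.p6, 8 of the 10. Hist1h2bc and H2afx were the others. The 250 bases before the RefSeq start were searched on both strands for CCAAT, the site that nuclear factor Y binds, which is common in promoters of cell cycle genes. RefSeq starts can differ from the GENCODE genes used for lengths. The windows of H2afy, H3f3a and H3f3b lie inside their GENCODE genes. The GENCODE gene of H3f3b, on the minus strand, begins at chr11:116027962, well upstream of its window. Printed here are Hist1h1c (chr13:23738557-23738806 on the plus strand), which was higher, the pair H2afz (chr3:137864237-137864486 on the plus strand) and H2afv (chr11:6444444-6444693 on the minus strand), which were lower in every tyramine library, and the H3.3 pair H3f3a (chr1:180813606-180813855 on the minus strand) and H3f3b (chr11:116024505-116024754 on the minus strand), of which H3f3b alone was past the threshold. Capitals mark CCAAT or its reverse complement ATTGG.
Hist1h1c: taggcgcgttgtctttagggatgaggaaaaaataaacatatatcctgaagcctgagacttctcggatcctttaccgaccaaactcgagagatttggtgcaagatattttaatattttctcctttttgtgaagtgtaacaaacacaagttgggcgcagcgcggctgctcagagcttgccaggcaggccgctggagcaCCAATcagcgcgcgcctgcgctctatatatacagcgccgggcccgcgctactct
H2afz: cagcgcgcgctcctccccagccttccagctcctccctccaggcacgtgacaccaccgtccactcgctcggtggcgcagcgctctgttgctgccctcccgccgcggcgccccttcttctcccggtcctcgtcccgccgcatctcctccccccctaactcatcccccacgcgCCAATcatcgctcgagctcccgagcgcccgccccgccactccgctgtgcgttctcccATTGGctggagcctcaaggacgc
H2afv: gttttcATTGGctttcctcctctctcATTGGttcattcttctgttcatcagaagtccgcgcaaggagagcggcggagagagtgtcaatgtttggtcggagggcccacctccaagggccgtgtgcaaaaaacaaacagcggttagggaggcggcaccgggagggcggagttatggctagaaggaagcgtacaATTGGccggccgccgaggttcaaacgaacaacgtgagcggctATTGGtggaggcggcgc
H3f3a: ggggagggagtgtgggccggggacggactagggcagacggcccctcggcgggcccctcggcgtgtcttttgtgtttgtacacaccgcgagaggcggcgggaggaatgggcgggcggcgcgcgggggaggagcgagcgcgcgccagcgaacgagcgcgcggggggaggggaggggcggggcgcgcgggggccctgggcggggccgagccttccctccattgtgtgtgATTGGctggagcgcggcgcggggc
H3f3b: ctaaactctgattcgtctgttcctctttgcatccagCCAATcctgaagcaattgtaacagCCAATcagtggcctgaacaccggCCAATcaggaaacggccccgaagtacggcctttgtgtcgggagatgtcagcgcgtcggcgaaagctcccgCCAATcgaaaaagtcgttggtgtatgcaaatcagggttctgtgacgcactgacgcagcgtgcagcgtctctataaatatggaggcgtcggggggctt
CCAAT was present in 6 of the 8 windows, with 1 match in Hist1h1c, 2 in H2afz, 4 in H2afv, 3 in H2afj, 1 in H3f3a and 4 in H3f3b, whereas 33.8% of 32851 mouse promoter windows of the same length hold it. H1f0 and H2afy had no match in this window. The letters thus occurred in windows of genes that were higher, lower and not past the threshold. AAACACA, the H1 box of linker histone promoters, was found in Hist1h1c and also in H3f3a (6.25% of windows). TTTGAA, the cell cycle homology region, was found in H2afv (16.0% of windows). TATAAA (12.4%) and TGACNNNGC, the core of the antioxidant response element (10.2%), were found in H3f3b. The E2F letters TTTCCCGC (0.895%) and TTTGGCGC (0.417%) matched none of the 8. No match of another motif overlapped a CCAAT match in these windows, and a match describes the letters and is no sign that a factor binds.

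The other histone genes were read beside these. Of 61 replication-dependent histone genes, 17 had no count in any library and 36 of the 44 with counts never reached 100 in a library. Of the 20 tested, 3 were higher and 3 lower, and 14 did not pass, with a median log2 fold change of 0.91. The count of 30.0% called compares with 25.8% of all genes. Hist2h2aa1 with Hist2h2aa2, Hist1h2bq with Hist1h2br and Hist2h3c1 with Hist2h3c2 carry identical counts, so the 20 rows are 17 distinct measurements, of which 2 were higher, 3 lower and 12 not past, with a median of 0.88. Hist2h2aa1 and Hist2h2aa2, nearby H2A genes on chromosome 3 with identical coding sequences, are thus 1 measurement listed under both names. They stood at 231, 251 and 319 CPM in tyramine organoids, against 74.7, 101 and 88.8 CPM in controls. All tyramine libraries were higher, at a log2 fold change of 1.59 ± 0.16 (SE; adjusted p = 7.4e-05, edgeR's quasi-likelihood test with Benjamini-Hochberg adjustment).

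Hist1h2bg, an H2B gene with nearly the coding sequence of Hist1h2bc, stood at 28.5, 30.1 and 47.0 CPM in tyramine organoids, against 14.8, 15.8 and 16.5 CPM in controls. Its log2 fold change of 1.16 ± 0.26 (SE; adjusted p = 0.0088, same test) was near that of Hist1h2bc at 1.20, and because the coding sequences differ at only 5 bases, how far the counts are separate was not tested. All 3 rows called higher therefore belong to Hist2h2aa1, its copy and an H2B relative of Hist1h2bc. Hist1h4i, Hist1h2ao and Hist1h2ap, an H4 gene and a pair of H2A genes with identical coding sequences, were called lower on few counts. Hist1h2ao and Hist1h2ap may share reads and are not independent calls. Hist1h4i had 3 counts over all tyramine libraries, against 118 over all controls, a level 36.7 times higher in controls (exact 95% interval 12.2 to 180.3). Hist1h2ao had 2 against 134 counts, 62.4 times higher in controls (16.95 to 521), and Hist1h2ap had 2 against 122, 56.8 times higher in controls (15.4 to 475). These intervals pool the libraries of each group and leave out the scatter between libraries. They also treat each count as a separate molecule, and most low counts are even numbers, so they may be too narrow even for counting error. With counts halved, a choice made after seeing the data, they were 7.41 to 236 for Hist1h4i, 10.8 to 2502 for Hist1h2ao and 9.99 to 2318 for Hist1h2ap. The number called lower ran from 0 to 2 when any 1 library was left out.

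**Figure D4:**
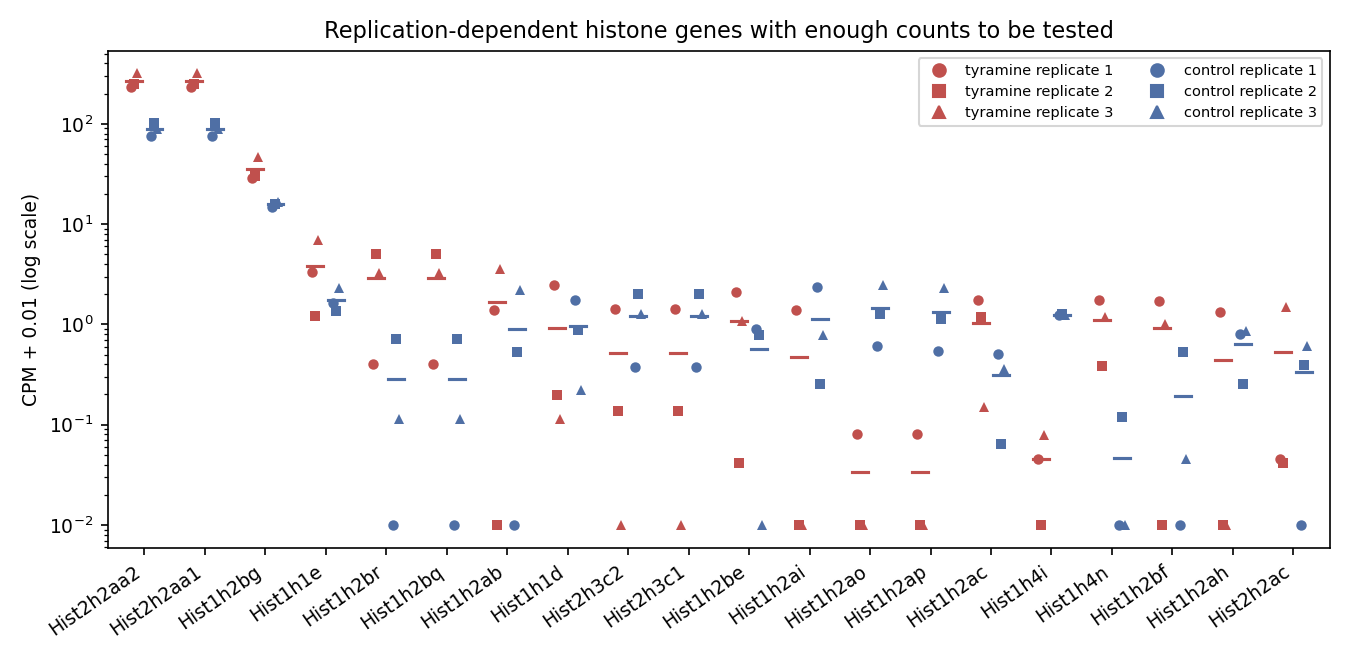
CPM plus 0.01 (log axis) of the 20 replication-dependent histone genes tested, in each tyramine library (red) and each control library (blue), with lines at the group means. The identical rows Hist2h2aa1 and Hist2h2aa2 and Hist1h2bg are the only ones above 10 CPM, and all 3 are higher in every tyramine library.

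Of 15 further variant histone genes, 10 had no count and 2 were tested. Cenpa encodes CENP-A, the H3 variant that marks centromeres and is made in G2 phase. It stood at 0.318, 0.063 and 0.139 CPM in tyramine organoids, against 15.6, 16.8 and 17.6 CPM in controls. It was near absent in all tyramine libraries, and its log2 fold change was -6.57 ± 0.63 (SE; adjusted p = 6.4e-05, edgeR's quasi-likelihood test with Benjamini-Hochberg adjustment). The H2A gene Hist3h2a, the other one tested, did not pass.

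Cell cycle genes were much lower in the same libraries. Of 19 genes of S phase and mitosis, 18 were lower (94.7%, beside 13.3% of all genes tested). The list's median was -2.70 on the log2 scale. Mki67, which encodes the proliferation marker Ki-67, stood at 25.9, 24.9 and 24.2 CPM in tyramine organoids, against 1281, 1426 and 1488 CPM in controls, a log2 fold change of -5.81 ± 0.11 (SE; adjusted p = 2.4e-09, edgeR). Rrm1 and Rrm2, the subunits of ribonucleotide reductase, had log2 fold changes of -3.57 ± 0.21 and -5.62 ± 0.21 (SE), and Top2a, the mitotic DNA topoisomerase, had -5.90 ± 0.35 (SE). Pcna, the replication clamp, did not pass at -0.22. What part the fall of these genes had in the values of H2afz and H2afv was not tested.

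Of 10 replication-coupled chaperone genes, 5 were lower (50%, beside 13.3% of all genes tested) and 5 did not pass, with a median of -1.69. Chaf1a and Chaf1b, subunits of the CAF-1 complex that loads H3 and H4 behind the replication fork, had log2 fold changes of -3.44 ± 0.26 and -2.76 ± 0.54 (SE). Tonsl, a reader of newly made histone H4, had -3.14 ± 0.79 (SE) and lost the threshold without control replicate 3 or tyramine replicate 2. Hat1, which acetylates new H4, had -1.23 ± 0.16, and Nasp, a chaperone of H3 and H4, had -0.40 ± 0.11 (SE), which lost the threshold without control replicate 2 or 3 or tyramine replicate 1 or 2. The number lower was 3 without control replicate 3 or tyramine replicate 2.

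Of 8 genes that load H3.3, 1 was lower (12.5%, near the 13.3% of all genes tested) and 7 did not pass, with a median of 0.088. Dek, a chromatin protein that acts as an H3.3 chaperone, stood at 211, 232 and 244 CPM in tyramine organoids, against 479, 578 and 666 CPM in controls, a log2 fold change of -1.33 ± 0.13 (SE; adjusted p = 6.5e-05, edgeR). Most genes of this list were thus not past the threshold, as were most of all genes tested. A link to the value of H3f3b was not tested.

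Of 22 genes of the complexes that load and remove H2A.Z, 6 were higher, 1 was lower and 15 did not pass, with a median of 0.34. Called in either direction were 31.8%, near the 25.8% of all genes tested. Vps72, the H2A.Z-binding subunit of the SRCAP and TIP60 complexes, stood at 143, 133 and 149 CPM in tyramine organoids, against 97.3, 97.7 and 97.6 CPM in controls, a log2 fold change of 0.54 ± 0.11 (SE; adjusted p = 0.0058, edgeR). Morf4l2, a relative of a TIP60 subunit, had 0.60 ± 0.074, and Epc2, an enhancer of polycomb protein of that complex, had 0.77 ± 0.20 (SE), which lost the threshold without control replicate 1 or 2. The ATPase genes Srcap and Ruvbl1 had 0.41 ± 0.13 and 0.42 ± 0.13, and Mrgbp, a TIP60 subunit, had 0.89 ± 0.27 (SE). Srcap, Ruvbl1 and Mrgbp each lost the threshold without any 1 control library, with a replicate block and with library totals alone. Leaving out tyramine replicate 1 or 3 (Srcap), 2 or 3 (Ruvbl1) and 1 or 2 (Mrgbp) also took them below it. Yeats4, a subunit that binds acetylated histones, had -0.67 ± 0.18 (SE) and lost the threshold without control replicate 1, 2 or 3. The number higher was 2 without control replicate 1 or 2, 3 without control replicate 3 and 4 without any 1 tyramine library, and it was 3 when libraries were scaled by their totals alone. H2afz, which did not pass, and H2afv lay below 0, as did Yeats4, while the list's median was above 0. A link between these genes and the list was not tested.

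Of 9 genes of H2A and H2B chaperones, 2 were lower (22.2%, beside 13.3% of all genes tested) and 7 did not pass. Their median was -0.099. Ssrp1, a subunit of the FACT complex, stood at 353, 349 and 354 CPM in tyramine organoids, against 513, 528 and 587 CPM in controls, a log2 fold change of -0.63 ± 0.089 (SE). Nap1l1, a chaperone that carries H2A and H2B, had -1.12 ± 0.18 (SE). Of 18 genes that process or degrade histone mRNA, 2 were higher (11.1%, near the 12.5% of all genes tested) and 16 did not pass. These were Upf1, an RNA helicase that acts in histone mRNA decay, at 0.69 ± 0.14, and Ncbp1, a subunit of the nuclear cap-binding complex, at 0.79 ± 0.16 (SE). The number higher was 5 without tyramine replicate 3.

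Of 14 tested genes that signal from H2A.X at DNA breaks, 1 was higher, 3 were lower and 10 did not pass, with a median of -0.21. That is 28.6% in either direction, near the 25.8% of all genes tested. Mdc1, which binds phosphorylated H2A.X, stood at 49.4, 40.5 and 55.3 CPM in tyramine organoids, against 90.7, 99.4 and 81.8 CPM in controls, a log2 fold change of -0.90 ± 0.16 (SE; adjusted p = 0.0029, edgeR). Brca1, which acts in homologous recombination, had -3.89 ± 0.62, and Mre11a, a nuclease of the break sensor complex, had -1.01 ± 0.21 (SE). Trp53bp1, which encodes 53BP1, had 0.75 ± 0.20 (SE) and lost the threshold without control replicate 2 or 3 and with a replicate block. The number lower was 5 without tyramine replicate 3, and the number higher was 2 without tyramine replicate 1. H2afx itself did not pass.

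The proteins of high mobility group genes bind nucleosomes or bend DNA and compete with linker histones. Of 9 such genes, 6 were lower (66.7%, beside 13.3% of all genes tested) and 3 did not pass, with a median of -1.34. Hmgb2, abundant in dividing cells, stood at 94.9, 77.4 and 97.8 CPM in tyramine organoids, against 296, 370 and 426 CPM in controls, a log2 fold change of -2.01 ± 0.15 (SE; adjusted p = 1.3e-05, edgeR). Its relative Hmgb3 had -1.80 ± 0.17, the nucleosome-binding genes Hmgn5 and Hmgn1 had -1.66 ± 0.21 and -1.13 ± 0.15 (SE), and Hmgb1 and Hmgn2 had -0.85 ± 0.13 and -1.34 ± 0.37 (SE). Hmgn2 lost the threshold without any 1 control library. In the same libraries Hist1h1c was higher and H1f0 was not past the threshold. Whether either is linked to the high mobility group genes was not tested.

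**Figure D5:**
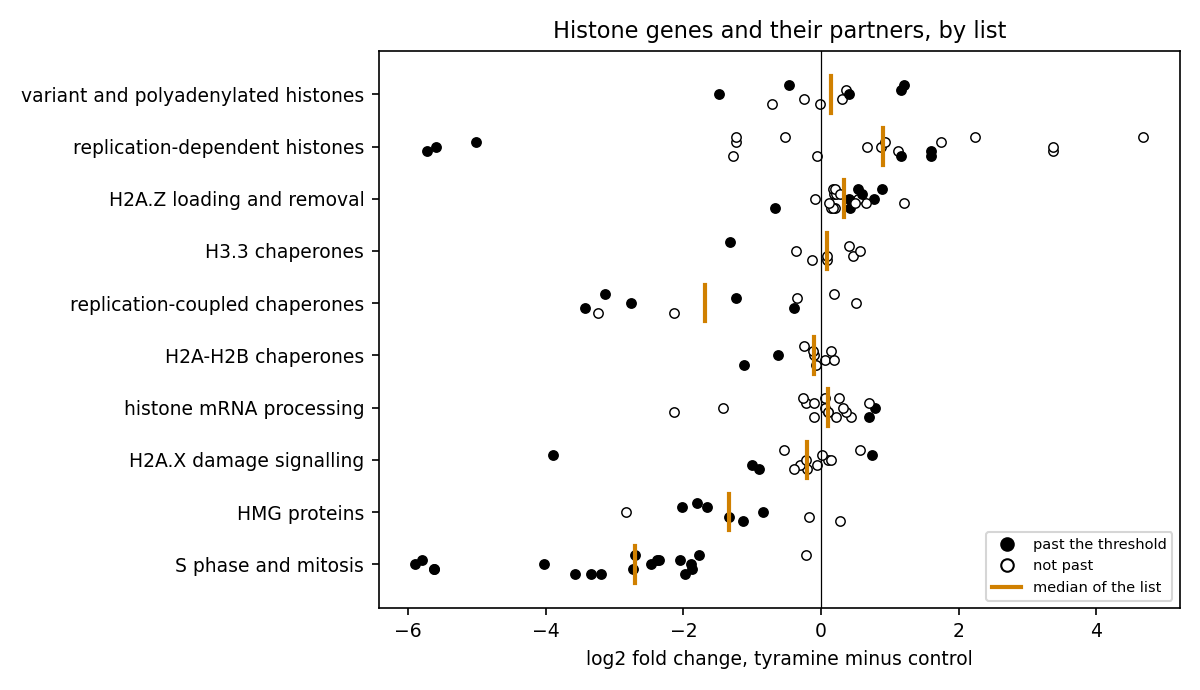
Log2 fold changes, tyramine minus control, of the tested genes of each list, 1 point per gene, filled where past the threshold, with an orange line at the list's median. The 10 variant and polyadenylated histone genes spread on both sides of 0 around a median of 0.14, while the S phase and mitosis genes have a median of -2.70.

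The genes whose pattern over the 6 libraries was most like each histone gene's were named by distance, the Euclidean distance between centred log2 CPM, among 6272 non-histone genes. For Hist1h1c the nearest were Zscan29 (0.19) and Rab11fip1 (0.22), and for Hist1h2bc they were Kpna4 (0.18) and Atp6v1h (0.19). For H3f3b the nearest was Chp1 (0.087) and for H1f0 it was Tomm70a (0.072). For H2afz they were C2cd2l (0.16) and Rxra (0.20). For H2afv they were Erlin1 (0.28) and Slc3a1 (0.59). H2afy was nearest to Akap11 (0.096), H2afj to Riok1 (0.14), H3f3a to Wdr60 (0.16) and H2afx to Csnk1g1 (0.28).

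The libraries held 29176428, 32489563 and 29898545 counts in tyramine organoids and 29154975, 35035955 and 28316372 in controls. The 10 most counted genes took 12.99% to 14.98% of the counts in tyramine libraries and 9.79% to 10.4% in controls. Epithelial markers were abundant in both groups, with 8 markers summing to 14374 to 15882 CPM in tyramine libraries and 15888 to 17347 CPM in controls, and of these Krt18 (0.67) and Cdh1 (0.39, not past without control replicate 2) were higher on the log2 scale and Vil1 (-1.43), Cdx2 (-1.79), Epcam (-0.44) and Krt19 (-0.67) lower. Fibroblast markers summed to 8.93 to 8.96 CPM in tyramine libraries and 9.45 to 9.74 CPM in controls, and 4 of 8 were tested, none past the threshold, with Thy1 nearest to it. Immune markers summed to 5.28 to 9.57 CPM in tyramine libraries and 4.95 to 8.09 CPM in controls, with Cd8a at 0 in all libraries, and endothelial markers to 0.278 to 3.02 CPM in tyramine libraries and 0.384 to 1.19 CPM in controls. Their part in the histone values was not tested.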

How the data were processed

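Per the labels' protocols, stranded mRNA libraries with molecular identifiers were sequenced as paired ends. The submitters' processing notes name STAR 2.5.3a and mm10. The sources used here do not give the counting program, annotation or strand setting, or whether identifiers were counted. The deposited values are raw counts per gene symbol. Per library, 72.6% to 78.7% of values from 1 to 8 were even, and counts are not read as single molecules.

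Genes were filtered with filterByExpr (minimum count 10, minimum total 15), which left 12139, scaled by TMM and tested with edgeR 4.0.16 (R 4.3.3), its robust quasi-likelihood F-test with group as the only term and Benjamini-Hochberg adjustment. CPM use TMM-scaled library sizes. SEs are log2 fold changes over the root of F. Scripts were tested on simulated data. Gene positions and transcripts are from GENCODE M21 (GRCm38), and promoters from RefSeq.

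The 10 genes and all lists were chosen with earlier results of these data known. Named from each list were up to 4 called genes with the smallest p, or the gene with the smallest p where none was called, and the 1 or 2 nearest genes in pattern of the 5 found for each histone gene. Srcap, Ruvbl1, Mrgbp, Nasp, Hmgb1, Hmgn2, Pcna, Hist3h2a, Krt19, Cdh1, Hist1h2ao and Hist1h2ap were named after their values were seen. Alternatives were DESeq2 1.42.0, its size factors within edgeR, limma-voom (limma 3.58.1), unscaled library totals, different low-count filters, robust estimation off, a replicate block, halved counts and each library left out. Counts of list genes under each alternative were added after seeing the data.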

Additional observations from a re-analysis of the deposited data

How the results depend on the processing

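Hist1h1c and Hist1h2bc kept their direction and call in all 16 alternatives. The log2 fold change of H1f0, -0.015, became 0.038 without tyramine replicate 1, and ran from -0.075 to 0.038 with each library left out. The 2 histone genes called lower were 1 with robust estimation off and 1 with the replicate block, in each case without H2afv. The 3 replication-dependent genes called lower were 0 with no low-count filter, 1 with a filter of 1 CPM in 3 libraries, 0 with a filter at a mean of 20 CPM, 0 with the replicate block and 1 with halved counts. With each library left out in turn, all genes called higher numbered 934 to 1510 and lower 1035 to 1797, the histone genes called higher numbered 2 to 4 and lower 0 to 2, and the replication-dependent genes called higher numbered 3 to 4 and lower 0 to 2. The number of histone genes called lower was 0 without control replicate 2 or 3. The cause of these shifts was not tested.

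Same-numbered libraries correlated at -0.019, -0.010 and 0.011 over genes in their deviations from the group means. Whether they share a culture or batch cannot be told from these values, and the labels do not say. The replicate block gave 1204 genes higher and 1390 lower, against 1518 and 1609 without it. Library totals alone moved the median log2 fold change of all genes to -0.081, and every histone gene kept its direction there. H2afv and Cenpa rest on few counts in tyramine libraries. Of the 44 replication-dependent genes with counts, 36 never reached 100 in a library.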
